A study of Mus musculus with 2 samples.

Results

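Ephrins are the membrane-bound ligands of Eph receptor tyrosine kinases, and the data described here are the levels of all 8 mouse ephrin genes in the cell types of the embryonic cortex. The members, *Efna1* to *Efna5* and *Efnb1* to *Efnb3*, were taken by gene symbol from 32285 genes listed, as the whole gene family, with earlier results of these data known. The study used single-cell RNA sequencing to ask how somatostatin interneurons could signal to cortical progenitors. The libraries used here come from the cerebral cortex of wild-type (WT) control mouse embryos of the *EomesDot* (*Eomes-Cre*) line at embryonic day (E) 16.5. There were 2 libraries in a single group, with no mutant or treated samples, and whether each holds 1 embryo or several is not given by the labels. Cell classes were therefore compared with each other inside these libraries (n = 2), and a p-value measures only how well the libraries repeat each other.

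Ephrins signal between cells that touch. The ephrin-A ligands hang on the membrane by a GPI anchor and bind mainly EphA receptors, whereas the ephrin-B ligands span the membrane and bind mainly EphB receptors, with EphA4 able to bind both kinds. The receptor cell is steered, often repelled, and the ligand cell can be signalled to in reverse. In the forebrain, ephrins are known for guiding axons and migrating interneurons, for layering of neurons, for contacts among radial glia and, in blood vessels, for the arterial side of the endothelium.

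Replicate 1 held 46398156 unique molecular identifiers (UMIs) in 9049 barcodes and replicate 2 held 64324236 UMIs in 13556 barcodes. Cells with 1500 to 60000 UMIs and under 10% mitochondrial UMIs were kept, which left 5966 and 10247 cells with medians of 5706 and 4938 UMIs. Cells were assigned to classes by gates on marker genes, none of which is an ephrin or an Eph receptor, and 51.7% and 47.6% of the kept cells fell into 1 of 20 classes. Of these, 19 had at least 20 cells in each library. Their cell numbers ran from 20 and 33 Cajal-Retzius cells to 722 and 1304 upper-layer neurons. Of the 9 markers listed for each, 3 were highest in their own class for newborn, layer 6 and layer 5 neurons, and 5 for upper-layer neurons. These lists share *Neurod2* and *Neurod6*. For endothelial cells all 9 were highest in their own class. In total 21 cell barcodes occurred in both libraries. The microglia gate also took cells with the macrophage genes *Pf4* and *Mrc1*, so it stands for microglia and macrophages. Levels are given as CPM, the UMIs of a gene per 1000000 UMIs of the class. Because 3′ counting does not treat all genes alike, a gene was compared between classes and not with other genes.

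The ephrins differed widely in depth. *Efnb2* gave 6961 and 10378 UMIs in the kept cells of replicates 1 and 2, and *Efna5* gave 5141 and 7187. *Efnb1* gave 1721 and 2444 UMIs, *Efnb3* 1241 and 1829, and *Efna2* 859 and 1223. *Efna4* gave 511 and 832, *Efna3* 320 and 468, and *Efna1* only 61 and 114 UMIs. The values of *Efna1* and *Efna3* in small classes thus rest on few molecules.

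**Figure D1:**
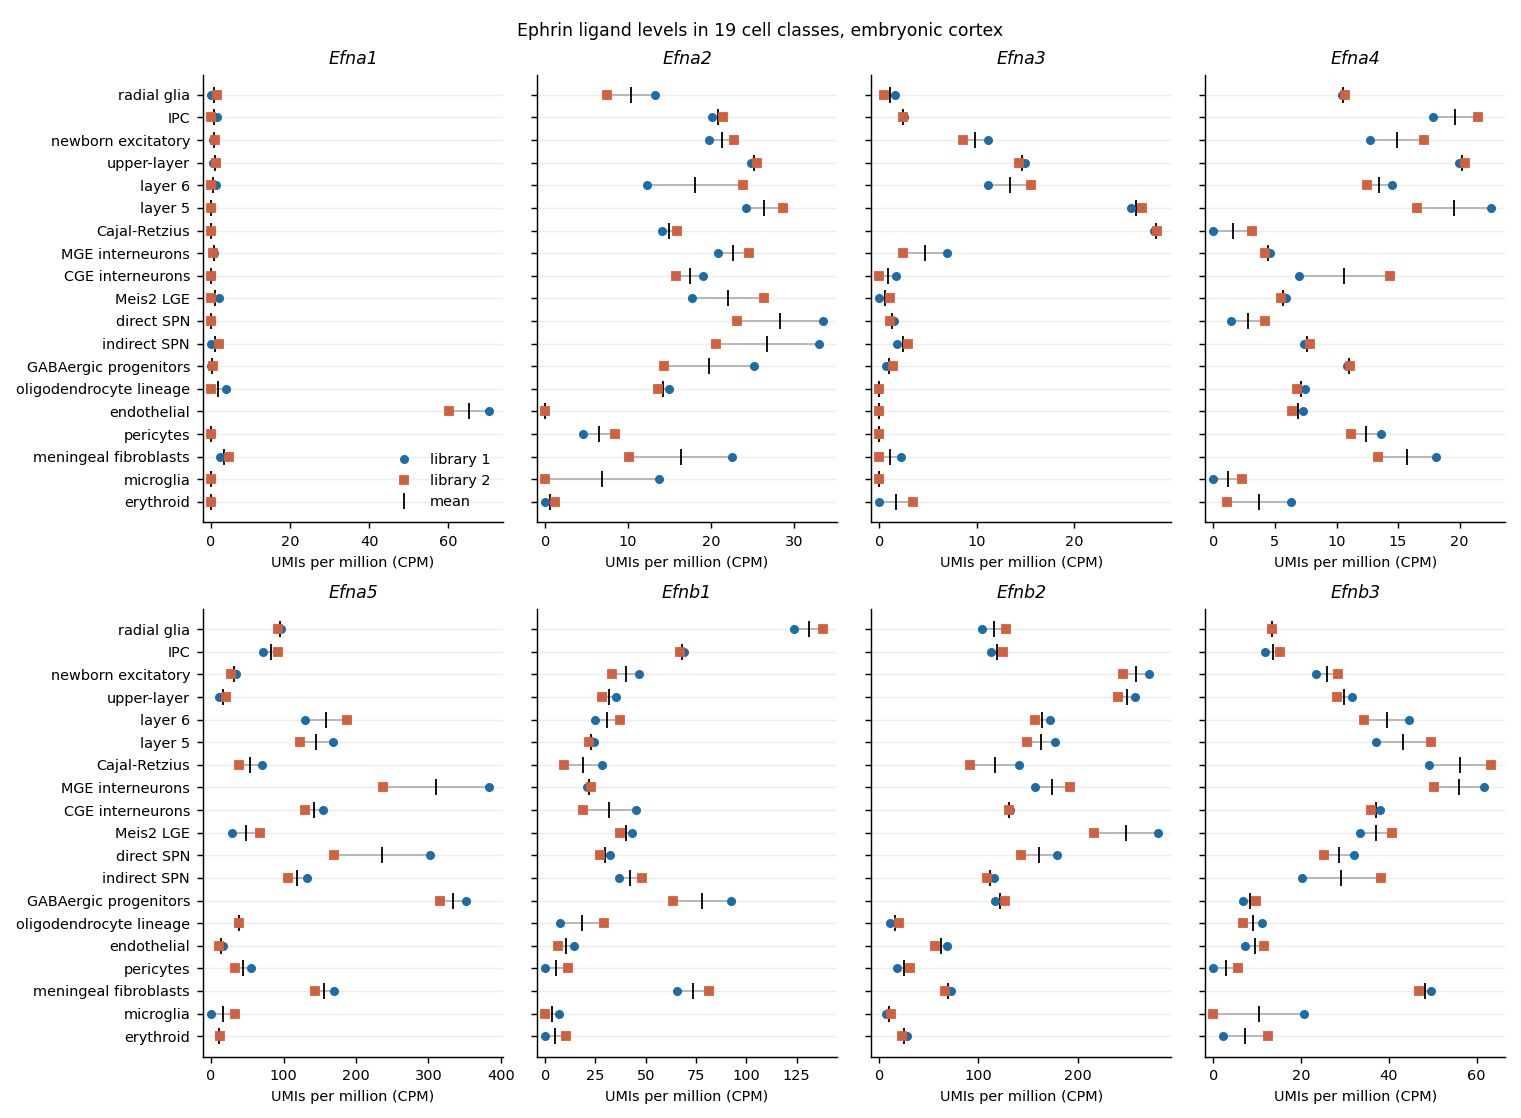
Level of each ephrin gene in 19 cell classes, in CPM (linear axis, a separate scale for each gene), with a circle for library 1, a square for library 2 and a tick for their mean. *Efna1* stands out in endothelial cells (70.3 and 60.2 CPM), *Efnb1* in radial glia, *Efna3* in cortical projection neurons and Cajal-Retzius cells, and *Efna5* is low in upper-layer neurons and high in MGE interneurons and GABAergic progenitors.

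*Efna1*, *Efna3* and *Efna4* lie on the same strand of chromosome 3, within 66299 bases from 89271730 to 89338028 (GRCm38.p6), in a stretch where the annotation lists 7 genes, the other 4 of them long noncoding RNA genes. *Efna1* was found in endothelium, *Efna3* in postmitotic cortical neurons, and *Efna4* at low levels in most classes with its highest levels in the pallial lineage. The high classes of *Efna3* and *Efna4* overlapped, as both stood above 10 CPM in upper-layer, layer 5 and layer 6 neurons. The 250 bases before the RefSeq start of each of the 3 are shown, since they lie close together. They were searched on both strands for the GC box GGGCGG, the CCAAT box CCAAT, the E-boxes CAGCTG and CAGATG, and the ETS-type core CCGGAA, and matches are in capitals.
*Efna1* (chr3:89280952-89281201, minus strand): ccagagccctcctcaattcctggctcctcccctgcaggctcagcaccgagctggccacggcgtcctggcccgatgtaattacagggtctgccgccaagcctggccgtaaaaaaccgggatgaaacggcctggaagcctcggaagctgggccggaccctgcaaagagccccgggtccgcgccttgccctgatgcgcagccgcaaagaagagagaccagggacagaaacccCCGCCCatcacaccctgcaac
*Efna3* (chr3:89322940-89323189, minus strand): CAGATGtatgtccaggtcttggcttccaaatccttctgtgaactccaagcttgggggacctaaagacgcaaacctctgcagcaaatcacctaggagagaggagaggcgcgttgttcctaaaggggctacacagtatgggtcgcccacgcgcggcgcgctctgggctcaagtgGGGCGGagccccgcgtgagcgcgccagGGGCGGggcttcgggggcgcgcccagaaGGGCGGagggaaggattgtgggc
*Efna4* (chr3:89338029-89338278, minus strand): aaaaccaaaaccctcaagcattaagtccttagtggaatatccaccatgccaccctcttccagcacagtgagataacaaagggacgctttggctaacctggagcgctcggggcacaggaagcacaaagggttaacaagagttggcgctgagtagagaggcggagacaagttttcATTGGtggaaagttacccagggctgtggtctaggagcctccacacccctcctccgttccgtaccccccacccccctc

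The *Efna3* window held 3 GC boxes and 1 CAGATG, the *Efna1* window 1 GC box, and the *Efna4* window no GC box but 1 CCAAT box. Of all 32851 promoter windows of this length, 32.7% held a GC box, 33.8% a CCAAT box, 14.4% a CAGATG, 13.0% a CAGCTG and 12% a CCGGAA, so such matches are common. The G and C content was 64.8% before *Efna1*, 63.6% before *Efna3* and 54.4% before *Efna4*. The other members lie apart, *Efna2* on chromosome 10 (80179482 to 80190010), *Efna5* on 17 (62602957 to 62881317), *Efnb1* on X (99136061 to 99149022), *Efnb2* on 8 (8617235 to 8661242) and *Efnb3* on 11 (69554092 to 69561150). *Efna3* and *Efna5* each overlap 2 predicted genes in RefSeq, so some of their molecules could have been assigned otherwise.

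The pallial lineage runs from radial glia, the stem cells of the cortex, through intermediate progenitor cells (IPCs) to newborn excitatory neurons and then to the layers. Along it the ephrins did not move together. *Efnb1* fell stepwise from radial glia, *Efnb2* and *Efna3* rose when neurons were born, and *Efna5* fell at the same step and was high again in deep-layer neurons.

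Between radial glia and IPCs, 3 of the 8 ephrins differed, against 33.7% of 14547 genes tested (edgeR's quasi-likelihood test, p-values adjusted over all genes by Benjamini-Hochberg, threshold 0.05, used for every adjusted p below). *Efnb1*, whose product is known from radial glial adhesion and from craniofacial development, stood at 123.6 and 138.3 CPM in the radial glia of the 2 libraries and at 69.2 and 66.8 CPM in IPCs. The libraries did not overlap between the classes, and the log2 fold change was -0.91 ± 0.17 (SE), adjusted p = 1.7e-05. *Efna2* went the other way, from 13.2 and 7.48 CPM in radial glia to 20.1 and 21.5 CPM in IPCs (log2 fold change 1.05 ± 0.29, adjusted p = 0.0032). *Efna4* rose from 10.4 and 10.7 CPM to 17.9 and 21.5 CPM (0.93 ± 0.28, adjusted p = 0.0080). *Efnb2* did not pass the test at this step, with 116.0 CPM ± 17.2 in radial glia and 118.9 CPM ± 8.42 in IPCs (SD, n = 2), and the 2 classes overlapped. *Efna5* stood at 94.8 CPM ± 2.67 and 82.3 CPM ± 14.7 (SD, n = 2) and did not pass the test.

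Of the receptors, 10 of the 14 listed had enough counts to be tested, and 7 of them differed at this step, 5 higher and 2 lower in IPCs. *Epha3* and *Ephb6* had the largest changes, with *Epha3* at 123.8 CPM in radial glia and 1108 CPM in IPCs on average (log2 fold change 3.20 ± 0.20). *Ephb6*, a receptor whose kinase domain is inactive, rose from 2.16 to 13.7 CPM (2.65 ± 0.45). The median log2 fold change of the tested receptors was 0.40 and that of the ephrins 0.08, against -0.0049 over all genes. Of 21 genes tested out of 24 listed as signalling partners of Eph receptors or ephrins, 7 were higher and 2 lower.

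Between IPCs and newborn excitatory neurons, 5 of the 8 ephrins differed, against 27.0% of all genes. *Efnb2*, the ephrin best known from arteries and from axon guidance, rose from 112.9 and 124.8 CPM to 271.8 and 246.1 CPM, higher in both libraries (log2 fold change 1.17 ± 0.12, adjusted p = 8.6e-11). *Efna3* rose from 2.51 and 2.43 CPM to 11.2 and 8.55 CPM (2.0 ± 0.42, adjusted p = 0.00026). *Efnb3*, known as a midline guidance cue of corticospinal axons, rose from 11.8 and 15.3 CPM to 23.4 and 28.5 CPM (0.98 ± 0.24, adjusted p = 0.0016). The direction of all 3 was the same in both libraries, but the calls of *Efna3* (1.75, adjusted p = 0.087) and *Efnb3* (0.60, adjusted p = 0.38) were lost with a gate that asked for 1 more marker and left 99 and 111 newborn neurons. *Ttr*, a gene of choroid plexus epithelium, stood at 0 CPM in the newborn neurons of replicate 1 and at 2560 CPM in those of replicate 2, against 0.251 and 190.8 CPM in IPCs. In replicate 1 alone, where *Ttr* was at 0, the log2 ratio of newborn neurons to IPCs was 1.27 for *Efnb2*, 2.15 for *Efna3* and 0.98 for *Efnb3*.

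At the same step *Efna5* and *Efnb1* went down. *Efna5*, a repellent cue of thalamocortical and retinal axons, fell from 71.9 and 92.7 CPM to 34.5 and 28.0 CPM (log2 fold change -1.36 ± 0.25, adjusted p = 2.6e-05). *Efnb1* fell further, from 69.2 and 66.8 CPM to 46.7 and 33.3 CPM (-0.72 ± 0.20, adjusted p = 0.0042), a call that DESeq2 did not make (-0.69, adjusted p = 0.0545). In replicate 1 alone their log2 ratios were -1.06 and -0.57. Among the receptors 4 were higher and 1 lower in newborn neurons, and the largest changes were those of *Epha6* (23.5 to 85.7 CPM, 1.92 ± 0.27) and *Ephb1* (35.2 to 102.2 CPM, 1.58 ± 0.21). Of the partners 9 were higher and 3 lower.

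**Figure D2:**
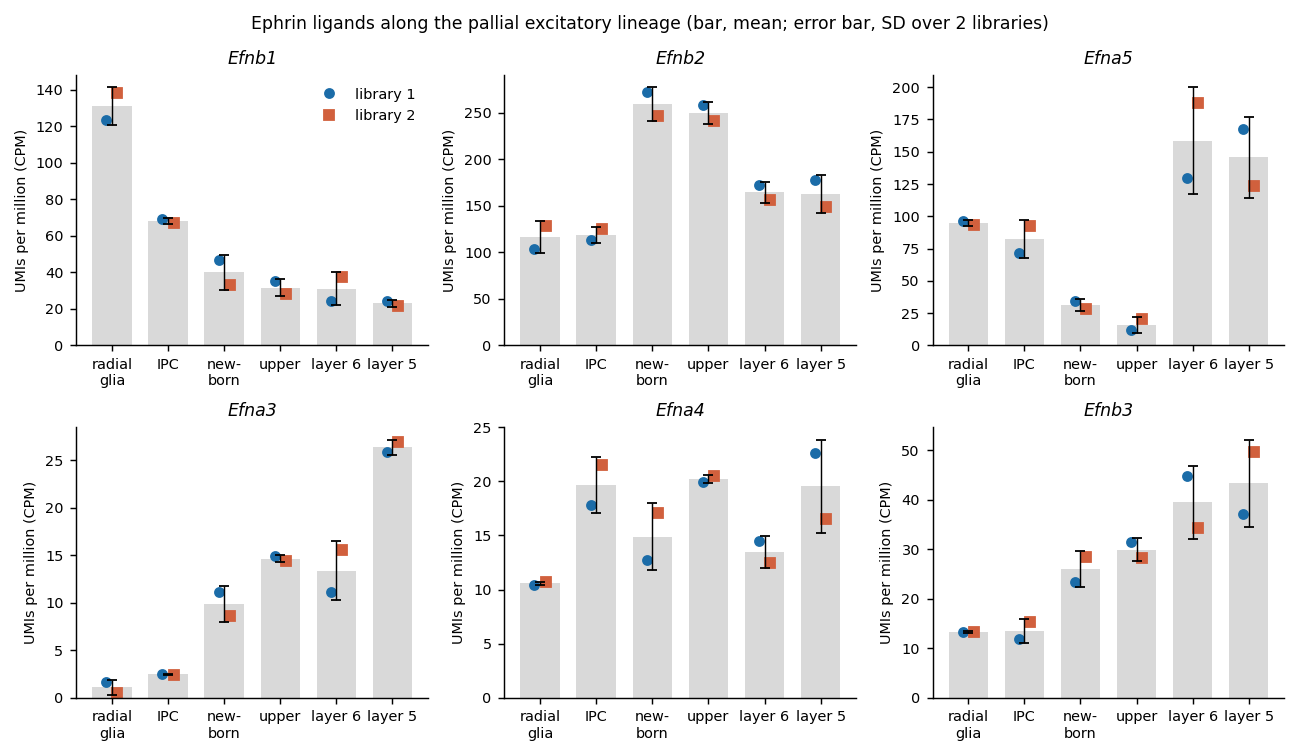
Levels of 6 ephrin genes along the pallial excitatory lineage, in CPM (linear axes from 0), where bars are means, error bars SDs over 2 libraries, circles library 1 and squares library 2. *Efnb1* falls from 131.0 CPM in radial glia to 23.0 CPM in layer 5 neurons, *Efnb2* is highest in newborn and upper-layer neurons, and *Efna5* is lowest in upper-layer neurons at 15.8 CPM and stands at 158.7 and 145.6 CPM in layers 6 and 5.

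Between newborn and upper-layer neurons none of the 8 ephrins passed edgeR's test, against 6.32% of all genes, while 1 member had an unadjusted p under 0.05 and DESeq2 called 0. That member was *Efna5*, at 34.5 and 28.0 CPM in newborn and 11.6 and 20.1 CPM in upper-layer neurons (log2 fold change -0.89 ± 0.30, adjusted p = 0.061), and it was called in 3 alternatives, at -1.75 with the stricter gate. *Efnb2* stood at 258.1 and 240.9 CPM in upper-layer neurons, and the libraries of both classes overlapped (-0.04 ± 0.11).

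Upper-layer and deep-layer neurons differed in 2 ephrins, against 8.65% of all genes. *Efna5* was the stronger by far, at 11.6 and 20.1 CPM in upper-layer neurons against 129.6 and 187.8 CPM in layer 6 and 167.8 and 123.3 CPM in layer 5 neurons. The log2 fold change of the deep-layer mean was 3.14 ± 0.22 (adjusted p = 5.4e-16), and the CPM ratio was 3.69 in replicate 1 and 2.95 in replicate 2 on the log2 scale, and the stricter gate gave 3.95. *Ttr* stood at 1.12 and 526 CPM in layer 6 neurons and at 0.186 and 43.0 CPM in upper-layer neurons. The progenitor genes *Mki67* (22.3 and 24.9 CPM against 2.98 and 4.26 CPM) and *Fabp7* (713 and 917 CPM against 296.4 and 447.2 CPM) were also higher in layer 6. In layer 5 neurons, where *Mki67* stood at 0 and 3.47 CPM and *Fabp7* at 156.5 and 375.2 CPM, *Efna5* stood at 167.8 and 123.3 CPM. *Efnb2* went the other way, from 258.1 and 240.9 CPM in upper-layer neurons to 172.1 and 156.6 CPM in layer 6 and 177.5 and 148.5 CPM in layer 5 (-0.66 ± 0.11, adjusted p = 1.5e-05). *Efnb3* stood at 29.9 CPM ± 2.28 in upper-layer neurons, 39.5 CPM ± 7.40 in layer 6 and 43.3 CPM ± 8.77 in layer 5 (SD, n = 2), a difference that missed the threshold (0.46 ± 0.18, adjusted p = 0.13) but passed it without the cells of the highest doublet scores (0.58, adjusted p = 0.0485) and with no other classes in the fit (0.49, adjusted p = 0.0425).

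Receptors were also unequal between the layers, with 1 higher and 2 lower in deep-layer neurons. *Ephb1* was higher (90.1 to 377.9 CPM, log2 fold change 1.87 ± 0.15) and *Epha3*, an ephrin-A receptor, was lower (1109 to 409.9 CPM, -1.52 ± 0.15). Between layers 5 and 6 no ephrin passed edgeR's test, against 5.57% of all genes, with 1 member at an unadjusted p under 0.05 and 0 called by DESeq2. This was *Efna3*, at 25.8 and 26.9 CPM in layer 5 and 11.2 and 15.6 CPM in layer 6 (1.08 ± 0.41, adjusted p = 0.12). The receptors *Ephb1* (-1.36 ± 0.18) and *Epha3* (-0.67 ± 0.21) were lower in layer 5 than in layer 6.

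Interneurons from the medial ganglionic eminence (MGE), where somatostatin interneurons are born, were compared with excitatory neurons of the cortex. The MGE gate also took 86 and 64 cells with an *Nkx2-1* or *Lhx8* UMI, factors that ventral MGE neurons keep. The class is thus not limited to interneurons that migrate into the cortex. Of the 8 ephrins 4 differed, 2 in each direction, against 19.7% of all genes. *Efna5* stood at 384.2 and 237.7 CPM in MGE interneurons and at a mean of 106.7 CPM ± 5.24 (SD, n = 2) over upper-layer, layer 5 and layer 6 neurons (log2 fold change 2.06 ± 0.16, adjusted p = 5.7e-15). Because the fit averages these 3 unequal classes on the log scale, its value lies above the ratio of the mean CPM values, which was 1.90 in replicate 1 and 1.11 in replicate 2 on the log2 scale. The 5% mitochondrial limit gave 2.70. In the MGE interneurons without an *Nkx2-1* or *Lhx8* UMI, *Efna5* stood at 275.3 and 194.6 CPM. *Efna5* of layer 6 neurons reached 187.8 CPM in replicate 2, close to the 194.6 CPM of those cells.

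*Efna3* and *Efna4*, both on chromosome 3, were both lower in MGE interneurons. *Efna3* stood at 6.93 and 2.40 CPM against a mean of 18.1 CPM ± 1.17 (SD, n = 2) in excitatory neurons (log2 fold change -1.98 ± 0.40, adjusted p = 0.00017). The log2 ratio was -1.32 in replicate 1 and -2.98 in replicate 2, so its size depends on the library, and it was -3.06 with the 5% mitochondrial limit. *Efna4* stood at 4.62 and 4.19 CPM against 17.7 CPM ± 1.80 (SD, n = 2) (-1.97 ± 0.36, adjusted p = 3.0e-05). *Efnb3* was higher in MGE interneurons, at 61.6 and 50.3 CPM against 37.5 CPM ± 0.305 (SD, n = 2) (0.55 ± 0.18, adjusted p = 0.025), a call that was lost without the cells of the highest doublet scores (0.35) and with the stricter gate (0.52). In the 223 and 321 MGE interneurons without an *Nkx2-1* or *Lhx8* UMI, *Efnb3* stood at 38.3 and 43.5 CPM, near the excitatory mean, and in the 86 and 64 cells with such a UMI at 103.6 and 79.8 CPM. *Efnb2* did not pass the test, at 157.1 and 192.2 CPM in MGE interneurons and 192.3 CPM ± 14.5 (SD, n = 2) in excitatory neurons (-0.11 ± 0.12). Its MGE level joined unequal cells, at 202.3 and 217.4 CPM without an *Nkx2-1* or *Lhx8* UMI and 75.5 and 83.0 CPM with one. Of the receptors 3 were higher and 2 lower, led by *Ephb1* (281.9 CPM in excitatory neurons, 21.0 CPM in MGE interneurons, -3.47 ± 0.24) and *Epha4* (135.1 and 350.8 CPM, 1.35 ± 0.12). Of the partners 6 were higher and 5 lower.

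GABAergic neurons were then compared with each other. In MGE against caudal ganglionic eminence (CGE) interneurons, *Efna5* was the called member of the 8, against 4.80% of all genes, at 384.2 and 237.7 CPM against 153.9 and 129.3 CPM (log2 fold change 1.11 ± 0.23, adjusted p = 0.00076). The lowest MGE library lay above the highest CGE library, and with the stricter gate the log2 fold change was 2.40. The MGE level was uneven, as *Efna5* stood at 580.3 and 424.7 CPM in the MGE interneurons with an *Nkx2-1* or *Lhx8* UMI and at 275.3 and 194.6 CPM in the others. *Efna4* stood at 6.92 and 14.4 CPM in CGE interneurons, and with an adjusted p of 0.23 its difference from MGE interneurons was not called. The receptors *Epha6* (85.0 against 26.2 CPM, 1.67 ± 0.44) and *Epha3* (525.0 against 288.7 CPM, 0.86 ± 0.21) were higher in MGE interneurons.

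Striatal projection neurons (SPNs) were gated too, so the dissected tissue held striatal cells. Against MGE interneurons, 2 ephrins were lower in the mean of direct and indirect SPNs, against 8.75% of all genes called in either direction. *Efna5* stood at a mean of 177.4 CPM ± 55.9 in SPNs and 310.9 CPM ± 103.6 in MGE interneurons (SD, n = 2), lower in both libraries (-0.90 ± 0.18, adjusted p = 0.00022). The SDs are wide because replicate 1 was the higher library in both classes, and within replicates the log2 ratio was -0.82 and -0.79. The MGE interneurons without an *Nkx2-1* or *Lhx8* UMI stood at 275.3 and 194.6 CPM of *Efna5*, against 217 and 138 CPM in the SPN mean, and direct SPNs, at 301.9 and 170.1 CPM, overlapped with them. *Efnb3* stood at 28.9 CPM ± 3.94 against 55.9 CPM ± 7.98 (SD, n = 2) (-0.89 ± 0.23, adjusted p = 0.0052), a call lost with the stricter gate (-0.76, adjusted p = 0.087). The MGE interneurons without an *Nkx2-1* or *Lhx8* UMI, at 38.3 and 43.5 CPM of *Efnb3*, were closer to the SPNs. *Efnb2* stood at 136.6 CPM ± 15.3 (SD, n = 2) in SPNs (-0.39 ± 0.13, adjusted p = 0.056), and it was called as lower in 4 alternatives, with adjusted p from 0.0199 to 0.049. Its log2 ratio was -0.09 in replicate 1 and -0.61 in replicate 2, so its size depends on the library. The MGE interneurons without an *Nkx2-1* or *Lhx8* UMI stood at 202.3 and 217.4 CPM of *Efnb2*, against 147.4 and 125.8 CPM in the SPN mean, and those with one at 75.5 and 83.0 CPM. The receptors called included *Ephb1*, at 299.1 CPM in SPNs and 21.0 CPM in MGE interneurons (3.83 ± 0.25), and *Epha5*, at 480.5 and 3114 CPM (-2.70 ± 0.22). In all, 3 receptors and 3 partners were higher and 2 receptors and 4 partners lower in SPNs.

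Direct-pathway and indirect-pathway SPNs differed in *Efna5* among the 8 ephrins, against 3.06% of all genes. Direct SPNs stood at 301.9 and 170.1 CPM and indirect SPNs at 132.0 and 105.8 CPM (log2 fold change 0.96 ± 0.25, adjusted p = 0.017). Both libraries had the same direction and did not overlap, but the call was lost in DESeq2 (0.97, adjusted p = 0.19) and with the stricter gate (0.77, adjusted p = 0.099). *Efnb2* stood at 179.4 and 142.8 CPM against 115.5 and 108.7 CPM, which did not pass the test (0.49 ± 0.18, adjusted p = 0.19). The receptors *Epha6* (lower in direct SPNs, 43.8 against 154.5 CPM, -1.76 ± 0.35) and *Ephb1* (higher, 405.2 against 192.9 CPM, 1.04 ± 0.20) differed as well.

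**Figure D3:**
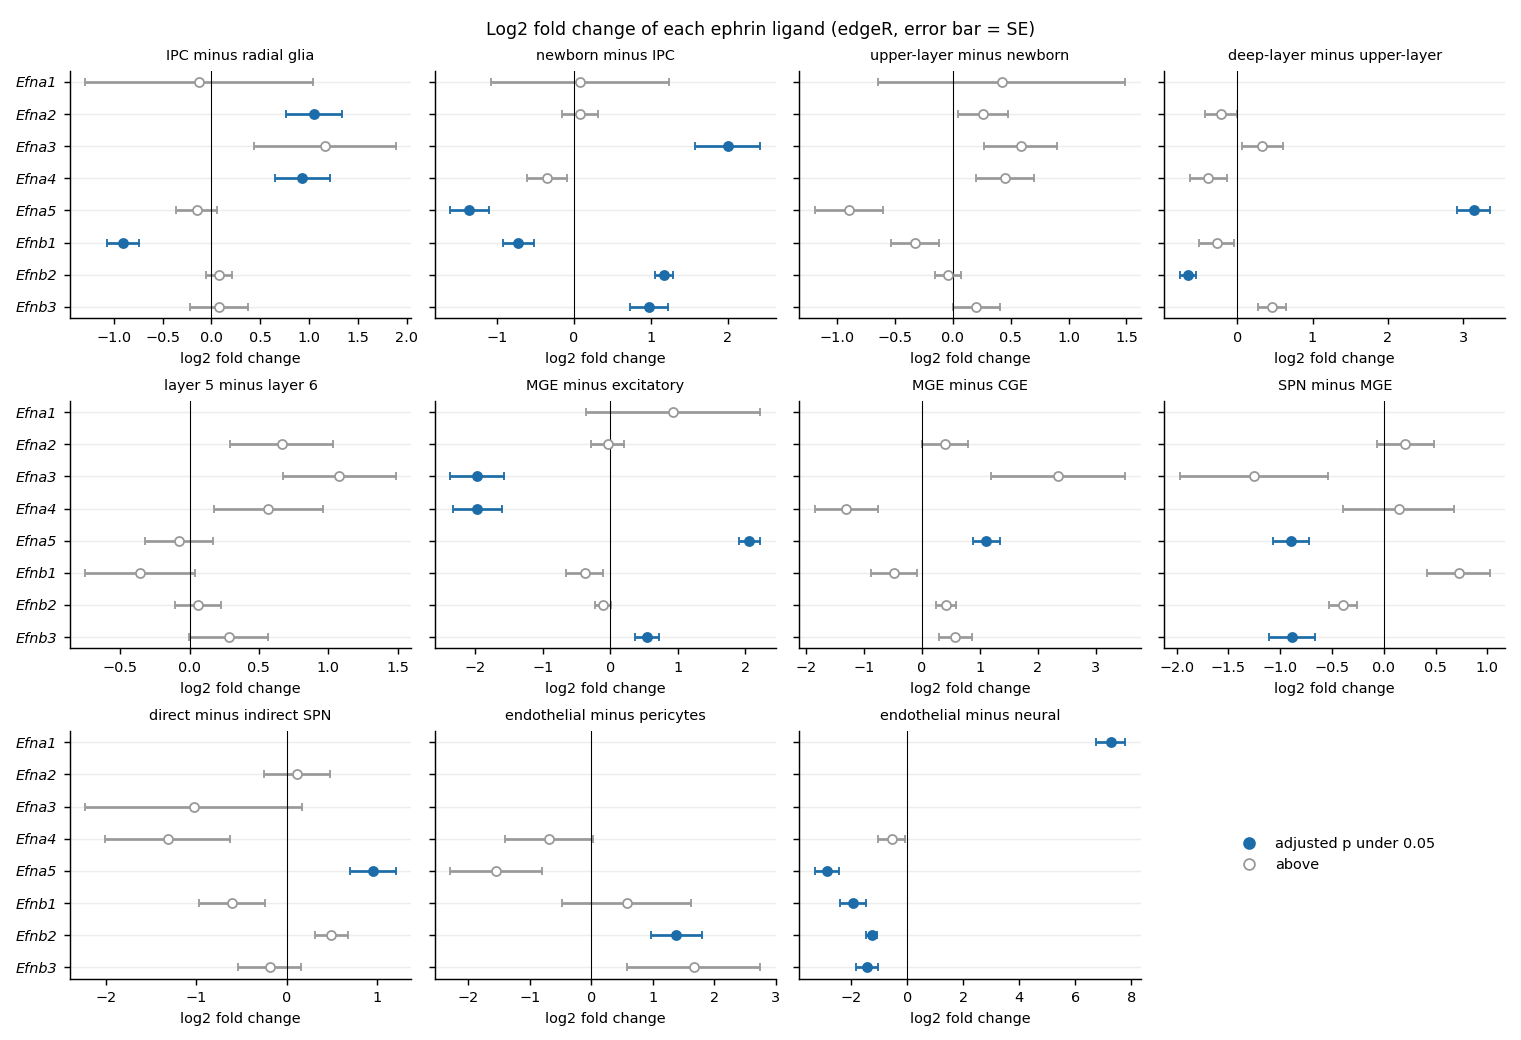
Log2 fold change of each ephrin gene in 11 comparisons between cell classes (edgeR, error bar = SE, a separate axis in each panel), with filled points for an adjusted p under 0.05 and open points above it. Of 88 values 78 are drawn, leaving out those with a class at 0 in both libraries where a bound was given and those with an SE over 1.5. *Efna5* is the member called in the most neuronal comparisons, with 3.14 in deep-layer against upper-layer neurons as its largest value.

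Endothelial cells, gated on *Cldn5*-type markers, differed from neural cells in 7 of 8 ephrins, 1 higher and 6 lower, against 46.0% of all genes called. *Efna1*, which endothelial cells are known to induce in inflammation, stood at 70.3 and 60.2 CPM (29 and 47 UMIs) in endothelium and at a mean of 0.546 CPM ± 0.140 (SD, n = 2) over 10 neural classes (adjusted p = 2.5e-15). The log2 ratio of these CPM values was 7.30 and 6.54 in the libraries. Pericytes had 0 *Efna1* UMIs, which makes the endothelial level at least 12.6-fold higher against a floor of 3 UMIs over both libraries (adjusted p = 9.3e-05). Meningeal fibroblasts came next with 2.26 and 4.47 CPM. In microglia, erythroid cells, Cajal-Retzius cells, layer 5 neurons, CGE interneurons and direct SPNs no *Efna1* UMI was counted.

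*Efna2* and *Efna3* were the reverse, with 0 UMIs in the endothelium of both libraries. Against the same floor, *Efna2* was at least 8.64-fold lower than in neural classes (21.7 CPM ± 0.486, SD, n = 2, adjusted p = 2.2e-06) and *Efna3* at least 3.06-fold lower (7.70 CPM ± 0.313, adjusted p = 0.018). *Efna5* fell to 17.0 and 10.2 CPM in endothelium from a neural mean of 133.6 CPM ± 20.95 (SD, n = 2) (log2 fold change -2.88 ± 0.43, adjusted p = 1.9e-07). *Efnb1* stood at 14.5 and 6.40 CPM against 45.0 CPM ± 1.08 (-1.93 ± 0.46, adjusted p = 0.00041), with log2 ratios of -1.65 and -2.79 in the libraries and a log2 fold change of -3.47 without the cells of the highest doublet scores. *Efnb3* stood at 7.27 and 11.5 CPM against 31.6 CPM ± 0.367 (-1.44 ± 0.41, adjusted p = 0.0031), with log2 ratios of -2.11 and -1.47.

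*Efnb2*, an arterial marker, stood at 67.9 and 56.4 CPM in endothelium, below the neural mean of 165.0 CPM ± 4.24 (SD, n = 2) (log2 fold change -1.28 ± 0.18, adjusted p = 6.5e-08) and above pericytes at 18.2 and 30.8 CPM (1.38 ± 0.41, adjusted p = 0.015). Of the UMIs that are neither haemoglobin nor mitochondrial, endothelium had 65.6 CPM of *Efnb2* and erythroid cells 102.0 CPM. *Efnb2* and *Efna1* were the 2 ephrins called against pericytes, against 14.6% of all genes. *Ephb4*, the venous receptor of ephrin-B2, was the receptor higher in endothelium than in neural classes (32.9 against 2.19 CPM, 4.38 ± 0.47), while 8 receptors were lower, *Ephb2* most (3.06 against 72.1 CPM, -4.62 ± 0.46). Over pericytes, 3 receptors were higher in endothelium, among them *Epha5* (153.3 against 10.7 CPM, 3.71 ± 0.67) and *Epha3* (85.0 against 7.35 CPM, 3.47 ± 0.88). Endothelial classes held 39 and 92 cells, of which 15.4% and 17.4% were among the cells of the highest doublet scores, and both *Efna1* calls held without those cells. *Efna4*, at 7.27 and 6.40 CPM in endothelium and 12.4 CPM ± 0.770 (SD, n = 2) in neural classes (-0.56 ± 0.48, adjusted p = 0.36), was called without those cells (-2.18, adjusted p = 0.0165). The neuronal gene *Neurod6* stood at 24.2 and 24.3 CPM in endothelium, 18.2 and 39.2 CPM in pericytes and 1032 and 1058 CPM in upper-layer neurons, and its part in the low levels of neural ephrins and receptors in these vascular cells was not tested.

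Outside these comparisons, the ephrins had other high points. GABAergic progenitors, the dividing cells of the ganglionic eminences, had the highest mean level of *Efna5* at 352.6 and 316.4 CPM, overlapping with MGE interneurons. Their mean of *Efnb1* was second to radial glia, at 92.6 and 63.6 CPM. It overlapped with *Efnb1* of meningeal fibroblasts (65.5 and 81.5 CPM) and IPCs (69.2 and 66.8 CPM). *Efnb3* was low in these progenitors (6.81 and 9.74 CPM), as it was in radial glia and IPCs. *Meis2* interneurons of the lateral ganglionic eminence (LGE) reached 280.8 and 216.2 CPM of *Efnb2*, overlapping with newborn and upper-layer neurons, but had 29.5 and 68.0 CPM of *Efna5*, below every library of the MGE, CGE and SPN classes.

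Cajal-Retzius cells, the reelin-producing cells of the marginal zone, had the highest means of *Efna3* (28.1 and 28.5 CPM, from 4 and 9 UMIs) and *Efnb3* (49.3 and 63.4 CPM, from 7 and 20 UMIs). *Efna3* of layer 5 neurons (25.8 and 26.9 CPM) lay within the 95% counting interval of the Cajal-Retzius cells, 15.1 to 48.6 CPM. *Efnb3* of MGE interneurons (61.6 and 50.3 CPM) and of meningeal fibroblasts (49.7 and 46.9 CPM) overlapped with that of the Cajal-Retzius cells. Meningeal fibroblasts also held *Efna5* at 169.4 and 142.9 CPM and *Efnb1* at 65.5 and 81.5 CPM. Of the fibroblasts 6.06% and 35.2% were among the cells of the highest doublet scores, of the microglia 16% and 30.4%, and of the oligodendrocyte lineage 6.06% and 36.8%. The part of such cells in the levels of these classes was not tested. Pericytes, microglia and cells of the oligodendrocyte lineage were at the low end for *Efnb2*, with 6.88 to 30.8 CPM over the libraries.

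When the 19 classes were put in order of mean level, most neighbours overlapped between libraries. A pair was counted as apart where both libraries of the higher class lay above both of the lower, which leaves counting error out. Of the 18 neighbouring pairs, 1 pair stood apart for *Efna1*, 3 for *Efna2*, *Efna3*, *Efnb1* and *Efnb3*, 4 for *Efna4* and *Efna5*, and 5 for *Efnb2*. For *Efna1* this was the step from endothelium to fibroblasts, and for *Efnb1* the step from radial glia to GABAergic progenitors was among the 3. For *Efnb2* the steps included that from *Meis2* interneurons to MGE interneurons, and for *Efnb3* that from newborn neurons to IPCs. In all 4 pairs of *Efna4* the 95% counting intervals of the pooled UMIs overlapped, so these are not steps beyond counting error.

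Red blood cells served as the class in which neural RNA should be foreign. With all cells thinned to 1500 UMIs, 0.730% and 0.897% of erythroid cells held an *Efnb2* UMI, against 30.2% and 28.1% of upper-layer neurons and 24.3% and 24.7% of MGE interneurons. For *Efna5* the erythroid shares were 0.730% and 0.448%, those of MGE interneurons 28.8% and 21.6%, and those of upper-layer neurons 1.80% and 2.61%. Since haemoglobin takes most erythroid UMIs, few other UMIs are left after thinning, and the shares of erythroid and neural cells are not on 1 footing. The median depth before thinning was 2744 and 3115 UMIs in erythroid cells, 7051 and 5799 in upper-layer neurons and 3518 and 3972 in MGE interneurons. Before thinning, 5.11% and 5.38% of erythroid cells held an *Efnb2* UMI, against 76.6% and 69.9% of upper-layer neurons.

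The CPM of erythroid cells likewise depends on what is counted in the total. *Efnb2* stood there at 25.1 CPM ± 3.35 of all UMIs (SD, n = 2, 33 UMIs) and at 102.0 CPM of the UMIs that are neither haemoglobin nor mitochondrial, against 263.6 CPM in upper-layer neurons and 184.1 CPM in MGE interneurons on the latter scale. On it *Efna5* stood at 46.4 CPM in erythroid cells, from 16 UMIs, at 328.5 CPM in MGE interneurons and at 16.7 CPM in upper-layer neurons, so the low *Efna5* level of upper-layer neurons was not above that of erythroid cells. The same held for *Efna5* in newborn neurons at 32.7 CPM. *Efnb3* stood at 28.4 CPM in erythroid cells, from 12 UMIs, and was lower in radial glia (13.9 CPM), IPCs (14.1 CPM) and newborn neurons (27.1 CPM). *Efna4* stood at 15.7 CPM there, from 4 UMIs, and was lower in several classes, among them MGE interneurons (4.65 CPM), radial glia (11.1 CPM) and layer 6 neurons (14.3 CPM). *Efna3* stood at 6.52 CPM there, from 3 UMIs, above MGE interneurons (4.93 CPM), IPCs (2.58 CPM) and radial glia (1.14 CPM) but below upper-layer neurons (15.5 CPM). In endothelium, *Efnb1* (11.1 CPM) and *Efnb3* (9.93 CPM) were below the erythroid levels of 19.6 and 28.4 CPM. Whether these low levels come from the cells themselves or from free RNA was not tested.

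Within MGE interneurons the ephrins were not even. MGE interneurons with an *Nkx2-1* or *Lhx8* UMI, factors that cortical interneurons turn off and ventral MGE neurons keep, made up 86 of 309 cells in replicate 1 and 64 of 385 in replicate 2. Their *Efna5* stood at 580.3 and 424.7 CPM, against 275.3 and 194.6 CPM in the other MGE interneurons, a log2 ratio of 1.08 and 1.13. *Efnb2* was reversed, at 75.5 and 83.0 CPM against 202.3 and 217.4 CPM (-1.42 and -1.39), and *Efnb3* stood at 103.6 and 79.8 CPM against 38.3 and 43.5 CPM (1.43 and 0.88). *Efna2* was similar on both sides in replicate 1 (21.6 and 20.4 CPM) and 31.9 against 22.8 CPM in replicate 2. The cells with such a UMI had more UMIs in the median (5252.5 and 4552.5 UMIs, against 3194 and 3805 for the rest). The split was not in the fit and is given without a test, like those that follow.

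**Figure D4:**
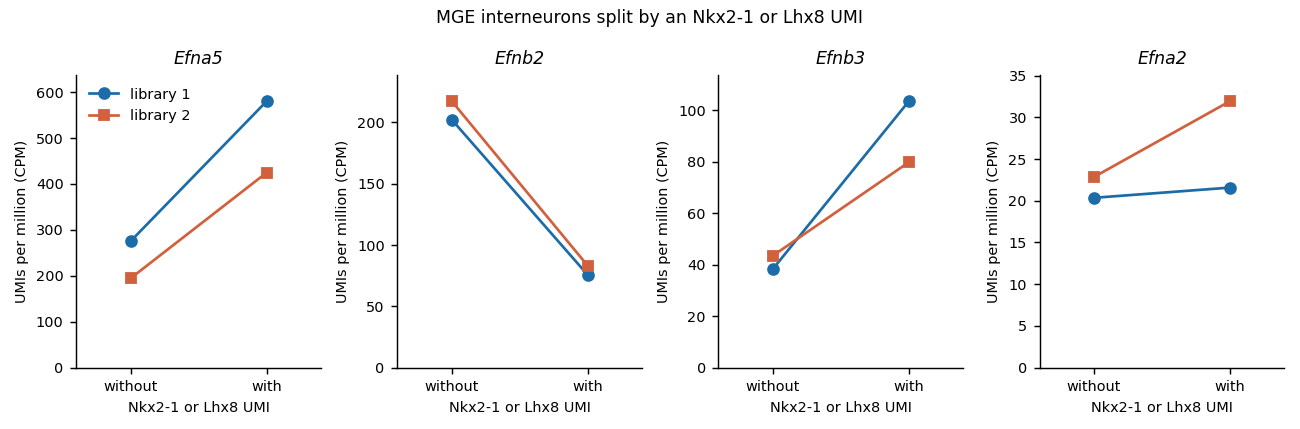
Level in CPM (linear axes from 0) of 4 ephrin genes in MGE interneurons without and with an *Nkx2-1* or *Lhx8* UMI, with circles for library 1 and squares for library 2 joined by a line. In both libraries *Efna5* and *Efnb3* are higher and *Efnb2* is lower in the cells with such a UMI.

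*Sst*, the somatostatin gene, gave another split of the same cells, in which those with an *Nkx2-1* or *Lhx8* UMI were not set apart. There were 82 and 81 cells with an *Sst* UMI and 227 and 304 without. Their median depths were 3988 and 4397 UMIs with, and 3351 and 3796 UMIs without. MGE interneurons with an *Sst* UMI had *Efna5* at 305.2 and 182.1 CPM, against 416.4 and 254.4 CPM in those without, a log2 ratio of -0.45 and -0.48. *Efnb2* stood at 193.7 and 205.5 CPM against 142.1 and 188.2 CPM, and *Efnb3* at 69.0 and 49.4 CPM against 58.6 and 50.6 CPM. In cycling IPCs, with at least 2 of 4 cycle markers (79 and 132 cells), *Efnb3* stood at 4.81 and 6.34 CPM (5 and 8 UMIs), against 15.8 and 21.6 CPM in IPCs with none of these markers (273 and 344 cells). IPCs with 1 marker were in neither group. *Efnb1* stood at 71.1 and 65.0 CPM in cycling and 64.8 and 67.2 CPM in IPCs with none of the markers, without a common direction.

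For each member, genes were named from the 3 with the most similar levels over the 19 classes, by Pearson's r of log2(CPM + 1) over 14547 genes. The classes share libraries, depth and the contrast of neural with non-neural cells, so r is a description. *Efna1* was most like *Gm38832*, *Procr* and *Sh3tc2* (r = 0.946, 0.946 and 0.940), of which *Procr* encodes the endothelial protein C receptor. *Efna3* was most like *Rtn4r*, the Nogo receptor gene (r = 0.945), *Gm42303* (0.906) and *Jakmip1* (0.905). *Efnb3* was most like *Cxadr* (0.912), *Srsf12* (0.898) and the neuronal enolase *Eno2* (0.883). *Efna2* was like *Lrp3* (0.956) and *8430429K09Rik* (0.946), and *Efnb2* most like *Gm20712* (0.918), *Mtfr1* (0.917) and *Zfp286* (0.916). *Efnb1* was most like *Proser3* (0.901), *Akt2* (0.870) and *Cep76* (0.854). *Efna4* and *Efna5* had looser matches, *Fzd1* (0.815), *Gm2061* (0.770) and *Mkks* (0.755) for the former and *Dpyd* (0.833), *Tcerg1l* (0.763) and *Fam110b* (0.757) for the latter. Between members themselves, r ran from -0.52 for *Efna1* with *Efna2* to 0.68 for *Efnb2* with *Efnb3*.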

How the data were processed

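Both libraries were made with a droplet kit that counts 3′ ends with UMIs. The authors deposited raw UMI counts for each gene and cell barcode, not normalized, after the barcode filter of Cell Ranger (7.0.0 in the submitters' processing notes, 7.1.0 in the file headers) on mm10. Whether introns were counted is not given in the sources used here. Kept cells had 1500 to 60000 UMIs and under 10% mitochondrial UMIs. Cells passing the gates of more than 1 class (43 and 58) were left out, and 2838 and 5308 cells passed none. UMIs were summed per library and class and compared with edgeR 4.0.16 in R 4.3.3, using TMM, a minimum of 10 counts in 2 or more sums, library as a block, 19 classes in 1 fit, 38 sums and 18 residual degrees of freedom. The block pairs classes of the same library, that is, of the same cells' source. SE is the log2 fold change divided by the square root of F. Alternatives were DESeq2 1.42.0, library totals, no count filter, no replicate block, only the compared classes, a stricter gate, Scrublet (scanpy 1.11.5), a 5% mitochondrial limit and each library alone. In simulated data for IPC against radial glia (14353 genes), 62% of 2-fold higher and 60% of 2-fold lower genes were called, 100% of 4-fold changes, and 0.042% of unchanged genes. Each changed set held 50 genes, all above 10 CPM in radial glia. The simulated spread was set above the common dispersion of the fit (0.00413). These rates therefore do not carry over to the tests of the data or to members at lower levels. Named receptors are up to 2 called per comparison with the largest fold change, among those that reached 10 CPM in either class and moved alike in both libraries. Members, classes and lists were chosen with earlier results of these data known. Gate settings were adjusted on marker genes without looking at the ephrins. Promoters and positions are from RefSeq (GRCm38.p6), which had a promoter entry for 7 of 8 members. Floors (3 counts) cover counting error only. A result of the search for genes with similar levels is not reported here.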

Additional observations from a re-analysis of the deposited data

How the results depend on the processing

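Of 27 ephrin calls, 21 were kept in every tested alternative, and no direction was reversed in any. With the stricter gate, ephrins called fell from 5 to 3 between newborn neurons and IPCs and from 1 to 0 between direct and indirect SPNs, and rose from 0 to 1 between upper-layer and newborn neurons. DESeq2 called 0 between direct and indirect SPNs. Without a count filter 1 was called between upper-layer and newborn neurons. Fitting no other classes than those compared called 1 there, 1 between layers 5 and 6 and 4 in place of 2 between SPNs and MGE interneurons. It also called 3 in place of 2 between deep-layer and upper-layer neurons and between endothelium and pericytes, the latter as DESeq2 did. Leaving out the cells of the highest doublet scores called 3 in place of 2 between deep-layer and upper-layer neurons and between SPNs and MGE interneurons, 8 in place of 7 between endothelium and neural classes, and 3 in place of 4 between MGE and excitatory neurons, as the stricter gate did. The 5% mitochondrial limit called 3 in place of 2 between SPNs and MGE interneurons, and DESeq2 4 in place of 5 between newborn neurons and IPCs. The fit without the replicate block changed no call of the 34 values compared, so the pairing of classes by library did not decide any. Each library alone leaves no residual degrees of freedom and gives ratios without a test, and no count of calls. With the 5% mitochondrial limit too few endothelial cells and pericytes were left, so those comparisons were not run. Scaling by library totals changed no ephrin call, but it moved the share of higher genes among all calls from 46.9% to 29.5% between layers 5 and 6, and from 57.2% to 47.0% between endothelium and pericytes, where the median of all genes moved by -0.11 (log2). DESeq2 moved it from 63.0% to 75.9% between deep-layer and upper-layer neurons. The causes were not tested. Depth limits *Efna1* and *Efna3* most, and Cajal-Retzius cells, with 20 and 33 cells, among the classes.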
